A study of Mus musculus with 20 samples.

Results

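The immunoglobulin constant region genes were examined by RNA-seq in the livers of mice treated with corticosterone (CORT) and with an antibody against acyl-CoA-binding protein (ACBP, also called DBI). The set held 10 genes, found by name among the 48440 genes of the count table. They are the heavy chain genes *Ighm*, *Ighd*, *Ighg1*, *Ighg2b*, *Ighg2c*, *Ighg3* and *Igha*, and the light chain genes *Igkc*, *Iglc1* and *Iglc2*. Of the 10 genes, 8 passed the filter on low counts, while *Ighg1* and *Ighg3* did not and were not tested across genes. A gene could pass this filter through a single group in which it was high.

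All 20 mice were wild-type C57BL/6 females of 8 weeks, and livers were taken at the end of the 5th week. C57BL/6J is the substrain in the study's methods. There were 4 groups of 5 livers. Mice given the isotype control antibody drank vehicle or CORT (Isotype + Vehicle and Isotype + CORT), and so did mice given the antibody against ACBP (αACBP + Vehicle and αACBP + CORT). CORT or its vehicle was given in the drinking water. Every mouse, controls included, was injected intraperitoneally with an antibody, either a monoclonal anti-ACBP antibody (αACBP) or an IgG2a isotype control, so no group was free of injected immunoglobulin. The injected antibodies are proteins, and the counts here are of RNA from whole liver. The comparisons asked how CORT changed these genes and whether αACBP changed them with or without CORT.

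Immunoglobulins are built from heavy and light chains, and the constant region of the heavy chain sets the class. Naive B cells make IgM and IgD from 1 transcript by alternative splicing, whereas IgG, IgA and IgE follow after class switching, in which the DNA between the variable segment and a new constant gene is cut out. Plasma cells secrete immunoglobulin in bulk. In liver the transcripts come from B cells and plasma cells in the sinusoids and around the portal tracts, and hepatocytes take no part in making them. Glucocorticoids are known to deplete lymphocytes from lymphoid organs. In bulk tissue fewer cells of a type and less RNA per cell cannot be told apart.

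The heavy chain genes lie in a row on the minus strand of chromosome 12 in GRCm39 (GENCODE M39), in the order *Ighm* (chr12:113382178-113386350), *Ighd* (chr12:113370224-113379944), *Ighg3* (chr12:113319844-113324852), *Ighg1* (chr12:113288860-113294143), *Ighg2b* (chr12:113266585-113271553), *Ighg2c* (chr12:113248945-113252552) and *Igha* (chr12:113218450-113223856). *Igkc* lies on the plus strand of chromosome 6 (chr6:70703419-70703950). *Iglc1* (chr16:18880368-18880821) and *Iglc2* (chr16:19017146-19019101) lie on the minus strand of chromosome 16. The first bases of coding exon 1 of *Ighm* and of the coding exon of *Igkc* are shown because these are the genes that passed the test below, with the cysteine codons in capitals.
Ighm: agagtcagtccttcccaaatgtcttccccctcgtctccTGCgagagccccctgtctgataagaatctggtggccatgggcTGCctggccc
Igkc: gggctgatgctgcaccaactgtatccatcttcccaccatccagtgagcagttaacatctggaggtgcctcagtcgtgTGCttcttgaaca
They were read from chr12:113386261-113386350 (minus strand) and chr6:70703419-70703508 (plus strand).

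The IgG subclasses share a body plan and differ most visibly in the hinge, which is a separate exon and holds the cysteines that join the heavy chains. The hinge exons are shown because reads of the 4 genes have to be told apart by such differences, again with cysteine codons in capitals.
Ighg1: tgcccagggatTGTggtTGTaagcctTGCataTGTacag
Ighg2b: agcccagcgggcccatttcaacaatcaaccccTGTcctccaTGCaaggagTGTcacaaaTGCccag
Ighg2c: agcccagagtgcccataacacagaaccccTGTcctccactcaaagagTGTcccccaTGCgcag
Ighg3: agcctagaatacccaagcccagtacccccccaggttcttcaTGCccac
These exons were read from chr12:113293464-113293502, chr12:113270881-113270946, chr12:113251883-113251945 and chr12:113324149-113324196 (minus strand). The hinge holds 4 such codons in *Ighg1* and in *Ighg2b*, 3 in *Ighg2c* and 1 in *Ighg3*. Over 4 coding exons per gene, without the membrane exons, *Ighg2b* and *Ighg2c* were 85.6% identical. The other IgG pairs were between 73.1% and 75.5% identical. No stretch of 100 bases was shared between a gene of the set and an annotated transcript of a gene elsewhere. Genes that overlap a gene of the set in position, on either strand, were left out of this search.

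*Iglc1* stands apart from *Iglc2* and *Iglc3*, the other lambda genes compared. The first bases of the constant exons of *Iglc1*, *Iglc2* and of *Iglc3*, a lambda gene outside the set, are shown because 2 of them are near copies. Capitals mark the 29 positions at which the 3 sequences are not all alike.
Iglc1: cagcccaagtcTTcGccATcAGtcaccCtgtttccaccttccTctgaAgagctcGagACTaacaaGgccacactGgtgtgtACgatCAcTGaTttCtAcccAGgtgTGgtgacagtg
Iglc2: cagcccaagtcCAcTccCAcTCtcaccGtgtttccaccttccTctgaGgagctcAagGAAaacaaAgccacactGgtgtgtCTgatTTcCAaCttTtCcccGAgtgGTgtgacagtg
Iglc3: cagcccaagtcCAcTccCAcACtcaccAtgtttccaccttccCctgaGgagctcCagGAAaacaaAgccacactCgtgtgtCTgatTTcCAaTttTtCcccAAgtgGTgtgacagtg
They come from chr16:18880703-18880819, chr16:19017484-19017600 and chr16:18884313-18884429 (minus strand). *Iglc2* and *Iglc3* were 95.9% identical over their coding bases, against 72.2% for *Iglc1* and *Iglc2* and 73.2% for *Iglc1* and *Iglc3*. How the counting split reads between *Iglc2* and *Iglc3* is uncertain, and their values are given with that limit.

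Counts on genes ranged from 14934926 to 20299999 per liver (median 16996358), so that 3 counts stood for 0.145 to 0.205 CPM (counts scaled by the TMM-adjusted library size to a common total). Same-group livers correlated at 0.928 to 0.979 across genes. The tissue carried the genes of liver: 7 of 8 hepatocyte markers were matched and summed to between 40762 and 145876 CPM. Pancreas markers reached at most 1.78 CPM in any liver.

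Immunoglobulin transcripts were scarce. The 10 genes together held 71.9 ± 17.9 CPM (SD, n = 5) in Isotype + Vehicle livers. Of the 200 values (10 genes in 20 livers), 62 were 0 and 132 were above 3 counts. Per kilobase of exon the order in Isotype + Vehicle livers was led by *Igkc* (43.7 ± 11.7 CPM per kb), followed by *Ighm* (17.7 ± 5.65 CPM per kb) and *Ighd* (3.13 ± 0.780 CPM per kb). The ranges of mean ± SD of these 3 genes did not overlap. *Iglc1* (2.17 ± 1.38), *Iglc2* (1.68 ± 1.61) and *Igha* (1.51 ± 0.613 CPM per kb) came next, and the ranges of mean ± SD of these 3 genes overlapped, as did those of *Ighd* and *Iglc1*. The IgG genes were lowest, with *Ighg2b* at 0.718 ± 0.375, *Ighg3* at 0.344 ± 0.385, *Ighg2c* at 0.237 ± 0.237 and *Ighg1* at 0.119 ± 0.165 CPM per kb, and the range of mean ± SD of each overlapped that of the next in this order.

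**Figure D1:**
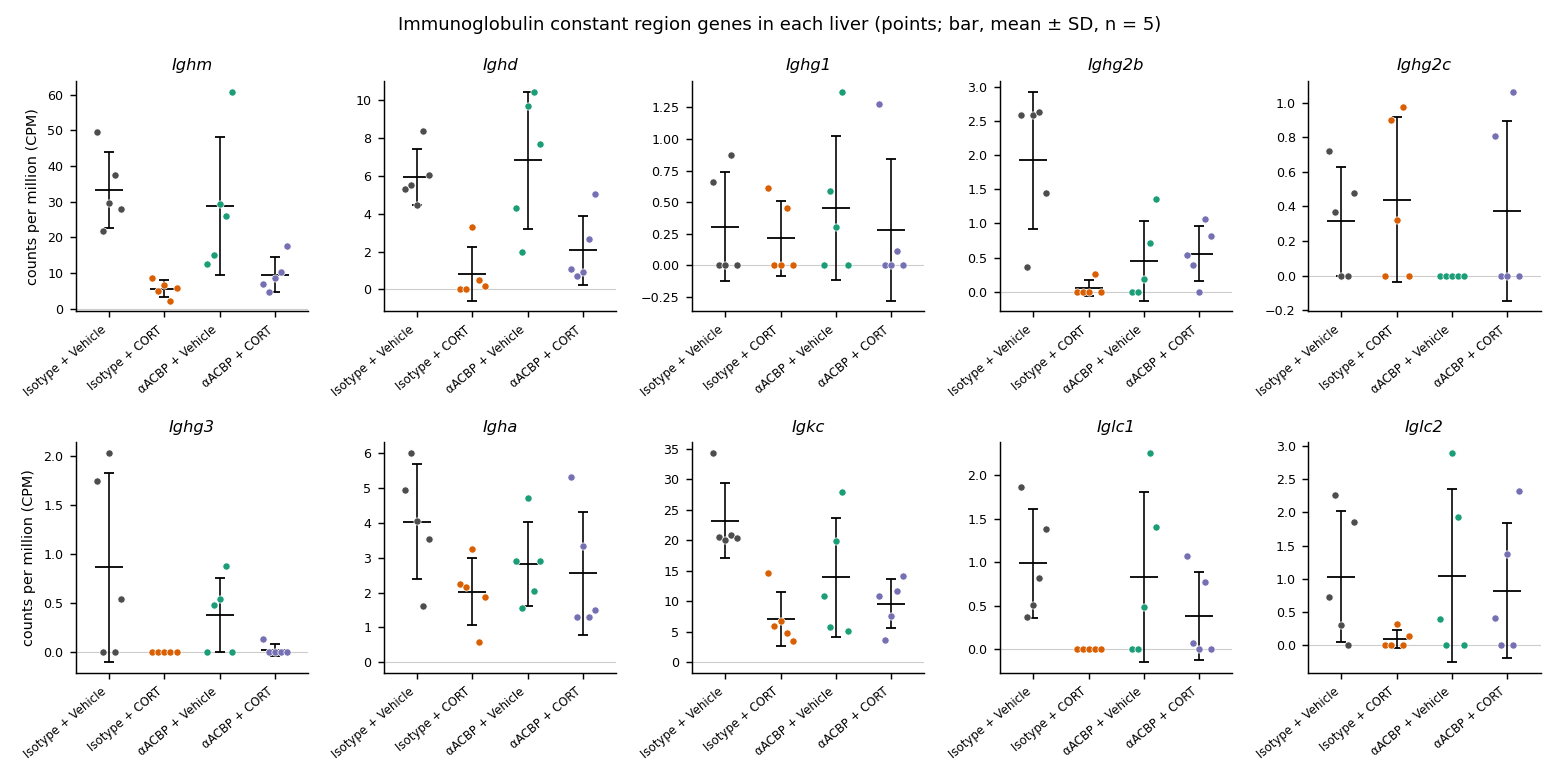
Level of each of the 10 genes in CPM (y axis, own scale per panel) in each liver of the 4 groups, with the mean and SD of 5 livers. *Ighm* sat between 2.22 and 8.69 CPM in Isotype + CORT livers and between 21.9 and 49.6 CPM in Isotype + Vehicle livers, and *Ighg3* and *Iglc1* were at 0 in all 5 Isotype + CORT livers.

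CORT lowered the IgM heavy chain and the kappa light chain in mice given the isotype control. Of the 8 genes tested, 2 passed (*Ighm* and *Igkc*), both lower. A gene passed where edgeR's quasi-likelihood test gave an adjusted p of 0.05 or less (Benjamini-Hochberg, over 16071 genes) and the level changed by 1 or more on the log2 scale. Over all genes tested, 1.94% passed in either direction and 1.43% passed as lower. The DESeq2 Wald test called 5 genes, all lower (*Ighm*, *Ighd*, *Ighg2b*, *Igkc* and *Iglc1*, next to 2.47% of all genes), and 5 also had an unadjusted p under 0.05 with that fold (next to 4.09%). The 8 estimates had a median of -2.70 on the log2 scale, where *Iglc1*, at 0 in a group, was set at its bound, next to 0.0022 over all genes tested. Groups did not overlap for 5 genes (*Ighm*, *Ighd*, *Ighg2b*, *Igkc* and *Iglc1*), all lower with CORT, against 3.02% of all genes tested that were lower without overlap. The mean CPM was lower with CORT for 9 of the 10 genes, the exception being *Ighg2c*.

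*Ighm* (ENSMUSG00000076617) encodes the constant region of mu, the heavy chain of IgM and of the antigen receptor of naive B cells. It was at 49.6, 21.9, 29.7, 37.4 and 27.9 CPM in the Isotype + Vehicle livers (replicates 1 to 5) and at 8.69, 5.01, 6.57, 2.22 and 5.86 CPM in the Isotype + CORT livers. The highest CORT liver lay below the lowest vehicle liver. Its log2 fold change was -2.55 (standard error 0.43, 95% interval -3.44 to -1.67, adjusted p = 0.0017, edgeR), from a mean of 33.3 ± 10.6 to 5.67 ± 2.36 CPM (SD, n = 5). It passed in 10 of 10 fits that left out 1 liver.

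*Igkc* (ENSMUSG00000076609) encodes the constant region of kappa, the light chain that most mouse antibodies carry. It was at 34.3, 20.6, 20.1, 20.9 and 20.3 CPM in the Isotype + Vehicle livers and at 14.7, 5.91, 6.73, 4.82 and 3.48 CPM in the Isotype + CORT livers. Again no CORT liver reached the vehicle range, and replicate 1 was the highest in both groups. The log2 fold change was -1.71 (standard error 0.44, 95% interval -2.62 to -0.79, adjusted p = 0.0355, edgeR). The call was at the edge of the threshold. It was kept when Isotype + CORT replicate 1 was left out (adjusted p = 0.00852) and lost without any one of the other 9 livers of the comparison (adjusted p up to 0.0893). In the present annotation 97.9% of its exon bases lie opposite *Gm68839*, and reads of both strands could not be told apart because the strand setting is not given in the sources used here.

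*Ighd* encodes the delta heavy chain, made from the same primary transcript as mu in naive B cells. It was at 5.30, 5.51, 4.47, 8.39 and 6.05 CPM in Isotype + Vehicle livers and at 0, 0, 3.31, 0.521 and 0.193 CPM in Isotype + CORT livers. The CORT livers were all below the vehicle livers, with replicate 3 well above the other 4. The estimate of -2.85 did not pass (standard error 0.87, adjusted p = 0.0743, edgeR), whereas without that replicate it was -5.04 (adjusted p = 0.000549) and passed.

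Of the IgG genes, *Ighg2b* had 43, 6, 51, 42 and 24 counts in the Isotype + Vehicle livers and 0, 0, 0, 4 and 0 counts in the Isotype + CORT livers. Thus 4 counts in 1 liver were all that was seen with CORT. Its log2 fold change of -5.07 had a wide interval (-8.29 to -1.85) and did not pass (adjusted p = 0.0733, edgeR). *Ighg3* had 29, 0, 40, 0 and 9 counts with vehicle and 0 counts in every CORT liver, at least 24.2-fold lower by the floor of 3 counts over the group. These groups overlapped at 0, and *Ighg3* was below the filter (exact permutation test, two-sided, p = 0.167, n = 5). *Ighg2c*, which C57BL/6 mice carry in place of *Ighg2a*, had the single positive estimate. It had 12, 6, 0, 0 and 8 counts with vehicle and 0, 18, 6, 15 and 0 counts with CORT (log2 fold change 0.49, 95% interval -3.0 to 3.97, adjusted p = 0.946, edgeR). *Ighg1* had at most 14 counts in a liver of either group and was at 0 in 3 of 5 livers in each. A difference in *Ighg1* or *Ighg2c* was not detectable at this depth.

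*Igha*, the alpha chain of IgA, the class of mucosal secretions and bile, was at 4.94, 6.00, 4.06, 1.63 and 3.54 CPM with vehicle and at 2.26, 2.15, 3.26, 0.587 and 1.87 CPM with CORT. The ranges overlapped, with replicate 4 the lowest in both groups. The log2 fold change was -0.99 (95% interval -2.10 to 0.12, adjusted p = 0.401, edgeR).

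The lambda genes were low throughout. *Iglc1* had 31, 6, 10, 13 and 23 counts in Isotype + Vehicle livers and none in the Isotype + CORT livers, at least 27.7-fold lower by the floor of 3 counts over the group, and missed the threshold (adjusted p = 0.0581, edgeR). *Iglc2* had 12, 37, 6, 0 and 31 counts with vehicle and 0, 0, 6, 0 and 2 with CORT, and did not pass either (log2 fold change -3.39, 95% interval -6.79 to 0.01, adjusted p = 0.323, edgeR). Among the constant genes outside the set, *Iglc3* passed: it was between 0.0612 and 3.57 CPM in Isotype + Vehicle livers and at 0 in all Isotype + CORT livers, at least 35.8-fold lower (adjusted p = 0.0333, edgeR), with 20.6% of its exon bases opposite *2010309G21Rik*. *Ighe*, the IgE heavy chain, and *Iglc4* had 0 counts in all 20 livers.

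**Figure D2:**
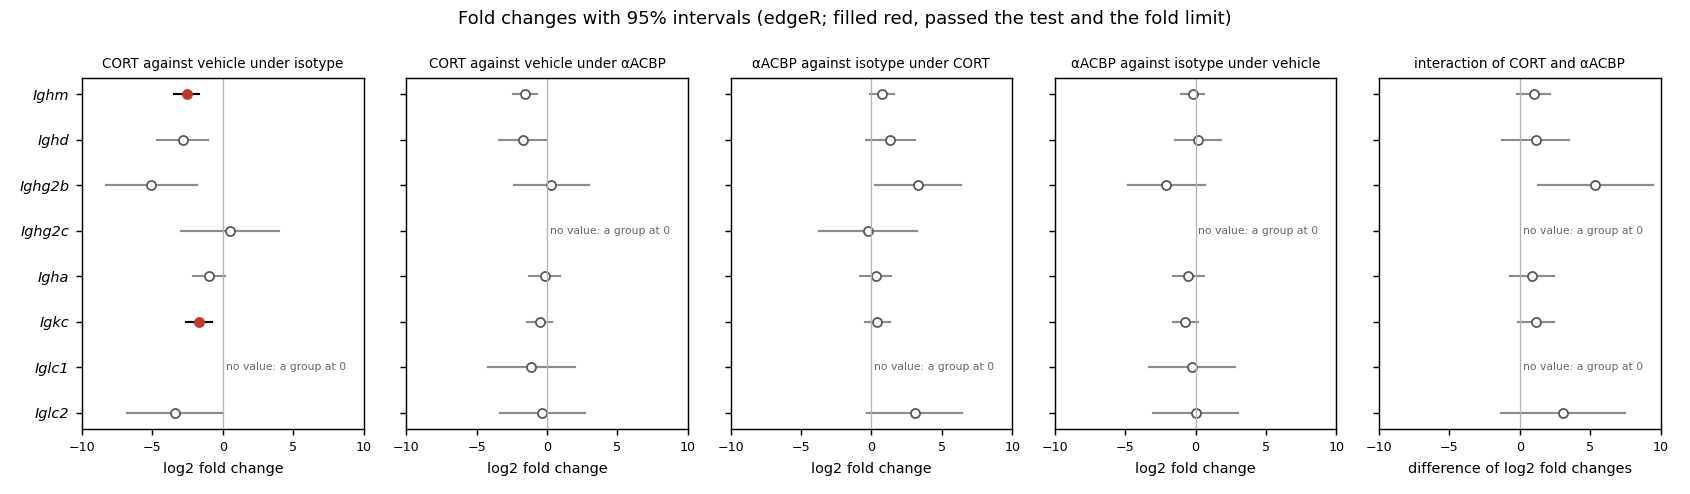
Log2 fold changes (x axis) with 95% intervals for the 8 genes tested in 4 comparisons and the difference between the effects of CORT under both antibodies. Filled points, *Ighm* at -2.55 and *Igkc* at -1.71 for CORT under isotype, passed the test, and the intervals of the IgG and lambda genes were the widest.

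In CORT-treated mice no gene of the set passed the test for αACBP. Of the 8 genes tested, 0 passed (0.597% of all genes passed in either direction). An unadjusted p under 0.05 with the fold limit met was found for 2 (*Ighg2b* and *Iglc1*), both higher (next to 3.24% of all genes in either direction). DESeq2 and voom each called 0 of the 8 (1.31% and 0.404% of all genes). The 8 estimates had a median of 1.05 on the log2 scale, again with *Iglc1* at its bound, next to 0.01 over all genes. *Ighm* was at 6.85, 4.76, 8.56, 10.3 and 17.6 CPM in the αACBP + CORT livers, of which replicates 4 and 5 lay above every Isotype + CORT liver and the others within their range. Its log2 fold change was 0.76 (95% interval -0.09 to 1.62, adjusted p = 0.486, edgeR).

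*Igkc* stood at 10.9, 3.73, 7.58, 11.8 and 14.2 CPM in the αACBP + CORT livers, inside the range of the Isotype + CORT livers (log2 fold change 0.44, 95% interval -0.47 to 1.34, adjusted p = 0.795, edgeR). *Ighd* was at 1.07, 0.708, 0.918, 2.66 and 5.03 CPM, and 1 Isotype + CORT liver exceeded 4 of these 5. The estimate was 1.34 (95% interval -0.40 to 3.09, adjusted p = 0.579, edgeR), and it passed only when Isotype + CORT replicate 3 was left out. *Ighg2b* had 8, 6, 0, 18 and 15 counts against 4 in 1 liver of the isotype group, with an estimate of 3.30 (95% interval 0.26 to 6.34, adjusted p = 0.35, edgeR). *Igha* had the smallest positive estimate, 0.33 (95% interval -0.78 to 1.43, adjusted p = 0.903, edgeR), and *Ighg2c* the single negative one (-0.24, adjusted p = 0.986, edgeR). The lambda genes had counts again in some livers: *Iglc1* had 16, 1, 0, 13 and 0 and *Iglc2* 6, 0, 24, 0 and 43 (adjusted p = 0.182 and 0.468, edgeR). These intervals do not show that the levels with and without αACBP were alike.

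Under αACBP the estimate of *Ighm* for CORT was negative as well, but no gene of the set passed (0 of 8 by edgeR, next to 0.212% of all genes tested). With vehicle and αACBP *Ighm* was at 12.5, 15.1, 29.4, 26.0 and 60.9 CPM, so that the lowest of these livers lay below the highest αACBP + CORT liver. The log2 fold change was -1.58 (95% interval -2.43 to -0.73, adjusted p = 0.0993, edgeR). An unadjusted p under 0.05 with the fold limit met was found for 3 of the 8 genes (*Ighm* and *Ighd* lower, *Ighg2c* higher), next to 2.46% of all genes. The call depended on the tool and on 1 liver: *Ighm* passed in DESeq2 (adjusted p = 0.00608, with 0.286% of all genes called lower), in voom (adjusted p = 0.0252, with 0.579%) and in edgeR without αACBP + CORT replicate 5 (adjusted p = 0.0173). *Ighd* was at 4.30, 1.98, 9.71, 10.5 and 7.67 CPM with vehicle and αACBP, overlapping the αACBP + CORT livers (log2 fold change -1.71, adjusted p = 0.388, edgeR). *Igkc* spread widely in the αACBP + Vehicle livers, at 10.9, 5.84, 19.9, 27.9 and 5.21 CPM, and 4 of the 5 αACBP + CORT livers lay within that range (log2 fold change -0.53, 95% interval -1.43 to 0.36, adjusted p = 0.674, edgeR). *Igha* was at 2.82 ± 1.2 and 2.55 ± 1.76 CPM (SD, n = 5) with a log2 fold change of -0.15 (adjusted p = 0.952, edgeR). *Ighg2c* had no count in the αACBP + Vehicle livers and 12, 0, 0, 18 and 0 counts in the αACBP + CORT livers (exact permutation test, two-sided, p = 0.444, n = 5).

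Without CORT, 0 of the 8 genes passed the edgeR test for αACBP (1.3% of all genes passed in either direction). *Ighg2c* alone had an unadjusted p under 0.05 with the fold limit met (1 gene, next to 3.34% of all genes). DESeq2 and voom called 0 (1.77% and 2.05% of all genes). *Ighm* was at 28.8 ± 19.3 CPM (SD, n = 5) with αACBP and at 33.3 ± 10.6 CPM with the isotype, a log2 fold change of -0.21 (95% interval -1.03 to 0.61, adjusted p = 0.846, edgeR). *Igkc* had an estimate of -0.74 (95% interval -1.63 to 0.15, adjusted p = 0.352, edgeR), with 1 of the 5 αACBP livers inside the isotype range and 4 below all isotype livers. *Ighg2b* had counts in every isotype liver and 0, 0, 3, 13 and 28 counts in αACBP livers, and did not pass (log2 fold change -2.07, 95% interval -4.80 to 0.65, adjusted p = 0.408, edgeR). *Ighg2c* was at least 9.63-fold lower by the floor of 3 counts over the group (adjusted p = 0.137, edgeR), from 26 counts in all to 0. The groups overlapped, as 2 isotype livers were at 0 too (exact permutation test, two-sided, p = 0.167, n = 5).

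The αACBP + CORT livers set against the Isotype + Vehicle livers gave 0 of 8 genes past the test by edgeR (0.0684% of all genes passed). An unadjusted p under 0.05 with the fold limit met was found for 2 genes (*Ighm* and *Igkc*, next to 1.39% of all genes). The groups of both genes did not overlap, both lower, against 1.46% of all genes tested. *Ighm* had a log2 fold change of -1.79 (95% interval -2.64 to -0.94, adjusted p = 0.099, edgeR) and *Igkc* one of -1.27 (95% interval -2.17 to -0.37, adjusted p = 0.362, edgeR). *Ighm* passed in DESeq2 (adjusted p = 0.00212, with 0.18% of all genes called lower) and in voom (adjusted p = 0.00102, with 0.697%), and *Igkc* in voom (adjusted p = 0.0185). This comparison and those above share groups.

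Whether the effect of CORT differed between the antibodies was tested by the interaction term, which 0 of the 8 genes passed by edgeR (0.143% of all genes passed). It had an unadjusted p under 0.05 with the fold limit met for 3 genes (*Ighg2b*, *Ighg2c* and *Iglc1*, next to 4.92% of all genes). Of these, *Ighg2c* had no count in the αACBP + Vehicle livers and *Iglc1* none in the Isotype + CORT livers. Their small p-values rest on an empty group, and no difference is given for either. DESeq2 and voom called 0 (1.16% and 0.367% of all genes). For *Ighm* the difference of log2 fold changes was 0.97 (95% interval -0.21 to 2.16, adjusted p = 0.601, edgeR) and for *Igkc* it was 1.17 (95% interval -0.09 to 2.44, adjusted p = 0.525, edgeR). The pass of *Ighm* and *Igkc* under isotype and not under αACBP does not show that the effects differed.

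The class make-up of the heavy chains differed between vehicle and CORT livers, which is a description without a test. The sum of *Ighm* and *Ighd* held 87.4 ± 3.32% of the heavy chain signal per kilobase in Isotype + Vehicle livers and 71.9 ± 12.3% in Isotype + CORT livers, and no Isotype + CORT liver (54.1 to 82.1%) reached the lowest vehicle liver (84.5%). IgA held 6.91 ± 3.91% (2.33 to 13.1%) with vehicle and 15.7 ± 4.54% (8.20 to 19.5%) with CORT. Under αACBP the ranges overlapped: the IgM and IgD share was 91.3 ± 2.62% (89.1 to 95.8%) with vehicle and 78.2 ± 13.7% (55.7 to 93.2%) with CORT. There the IgA share was 6.18 ± 3.27% with vehicle and 14 ± 9.34% with CORT, the latter ranging from 4.42 to 26.4%. The shares of 1 liver are tied to each other, so a lower value of *Ighm* raises the share of the others.

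The IgG share was too noisy to order: 5.71 ± 2.28% in Isotype + Vehicle, 12.4 ± 15.5% in Isotype + CORT, 2.53 ± 2.2% in αACBP + Vehicle and 7.78 ± 7.94% in αACBP + CORT livers. Isotype + CORT replicate 4 reached 37.7% on few counts. In counts, the ratio of *Igha* to *Ighm* ranged from 0.0435 to 0.274 in Isotype + Vehicle and from 0.26 to 0.496 in Isotype + CORT livers. The ratio of *Ighm* to *Ighd* was 3.98 to 9.35 in Isotype + Vehicle livers. Among light chains *Iglc1* and *Iglc2* together held 8.04 ± 4.10% with Isotype + Vehicle, 1.42 ± 1.97% with Isotype + CORT, 10.8 ± 9.53% with αACBP + Vehicle and 9.62 ± 4.99% with αACBP + CORT. In Isotype + CORT livers this rested on 8 counts of these genes next to 587 kappa counts. With *Iglc3* counted as lambda, a choice made after the data were seen, the lambda shares were 13.4 ± 5.51%, 1.42 ± 1.97%, 18.6 ± 6.08% and 14.4 ± 5.62% in the same order of groups.

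**Figure D3:**
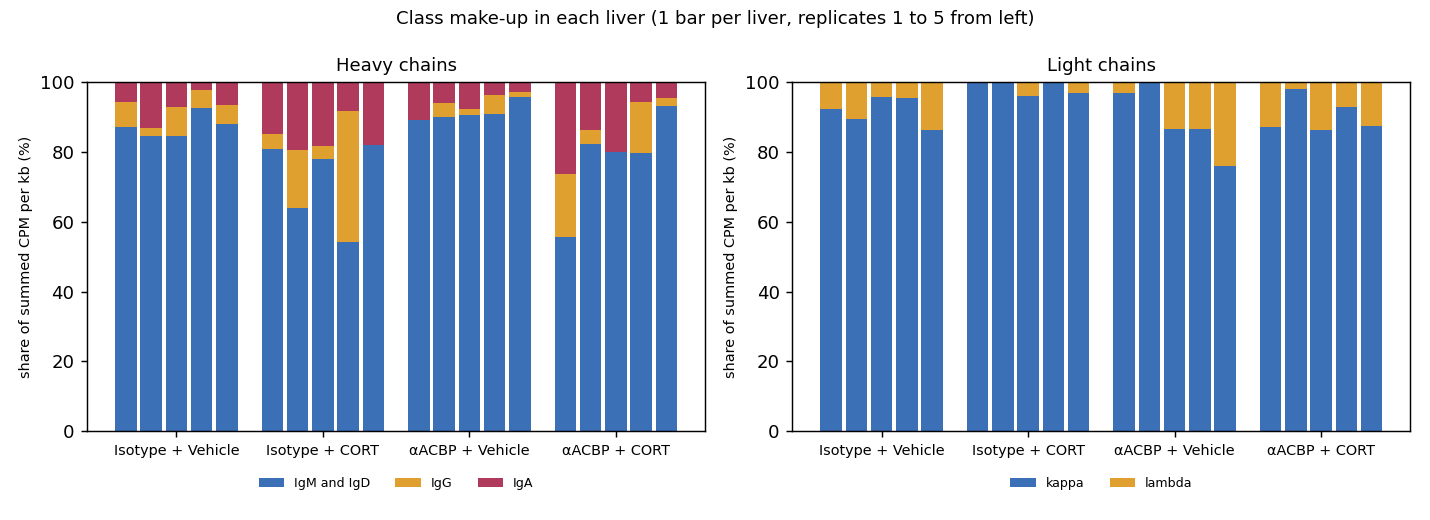
Share of each heavy chain class (left) and light chain class (right) in the summed CPM per kb of each liver, in percent, with 1 bar per liver. The IgM and IgD share was between 84.5 and 92.6% in Isotype + Vehicle livers and between 54.1 and 82.1% in Isotype + CORT livers.

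B cell genes were measured beside the immunoglobulins. Of 19 B cell identity genes tested, 2 passed as lower with CORT under isotype (*Cd22* and *Fcrla*), next to 1.43% of all genes. Of the 19 estimates 17 were negative and their median was -2.10, next to 0.0022 over all genes. The summed level of the 19 genes was 60.6 to 98.2 CPM in Isotype + Vehicle livers and 30.4 to 57.2 CPM in Isotype + CORT livers. *Cd22*, an inhibitory co-receptor of B cells, fell from 6.71 ± 3.15 to 1.25 ± 0.939 CPM (log2 fold change -2.41, standard error 0.59, adjusted p = 0.0224, edgeR). *Cd79a*, a signalling chain of the B cell receptor, was at 4.67 ± 2.07 and 0.961 ± 1.06 CPM without overlap and did not pass (log2 fold change -2.27, adjusted p = 0.182, edgeR). *Ms4a1*, which encodes CD20, did not pass either (log2 fold change -1.14, adjusted p = 0.737, edgeR).

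Most genes of plasma cells did not pass, and neither did most of the B cell genes. Of 13 plasma cell and secretion genes tested, out of 15, 1 passed as lower, next to 1.43% of all genes. It was *Pou2af1*, a B cell co-activator of transcription, between 0.839 and 1.90 CPM in Isotype + Vehicle livers and at 0 in all Isotype + CORT livers (at least 35.2-fold lower, adjusted p = 0.010, edgeR). Of the 13 estimates 9 were negative, with a median of -0.28, next to 0.0022 over all genes. *Slamf7*, a surface receptor of plasma cells and other lymphocytes, had 23, 0, 20, 0 and 16 counts in Isotype + Vehicle livers and 0 in all Isotype + CORT livers (at least 18.9-fold lower, adjusted p = 0.105, edgeR). *Jchain*, the joining chain of polymeric IgM and IgA, was at 6.14, 4.77, 1.57, 2.44 and 2.94 CPM in Isotype + Vehicle livers and at 11.1, 3.35, 2.88, 1.30 and 0 CPM in Isotype + CORT livers. The CORT livers spanned the whole vehicle range and beyond (log2 fold change 0.06, standard error 0.68, adjusted p = 0.983, edgeR). *Mzb1*, a chaperone of immunoglobulin assembly, was at 0.642 ± 0.785 and 1.5 ± 1.49 CPM (adjusted p = 0.697, edgeR). *Tnfrsf17*, which encodes BCMA of plasma cells, was at 0 in all livers, and much of the summed list lies in *Xbp1* and other secretion genes that hepatocytes use too. The difference between *Ighm* and *Jchain* was not tested.

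With αACBP in CORT-treated mice 0 of the 19 B cell genes and 0 of the 13 plasma cell genes passed by edgeR, next to 0.597% of all genes in either direction. Of the 19 B cell estimates 16 were positive (median 1.2), and the plasma cell median was -0.19. For *Cd22* the estimate was 1.81 (95% interval 0.61 to 3.01, adjusted p = 0.144, edgeR). *Pou2af1*, at 0 in all Isotype + CORT livers, had 0, 6, 17, 2 and 22 counts in the αACBP + CORT livers and missed the threshold (at least 15-fold higher, adjusted p = 0.0508, edgeR). *Jchain* had an estimate of -0.48 (adjusted p = 0.878, edgeR).

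**Figure D4:**
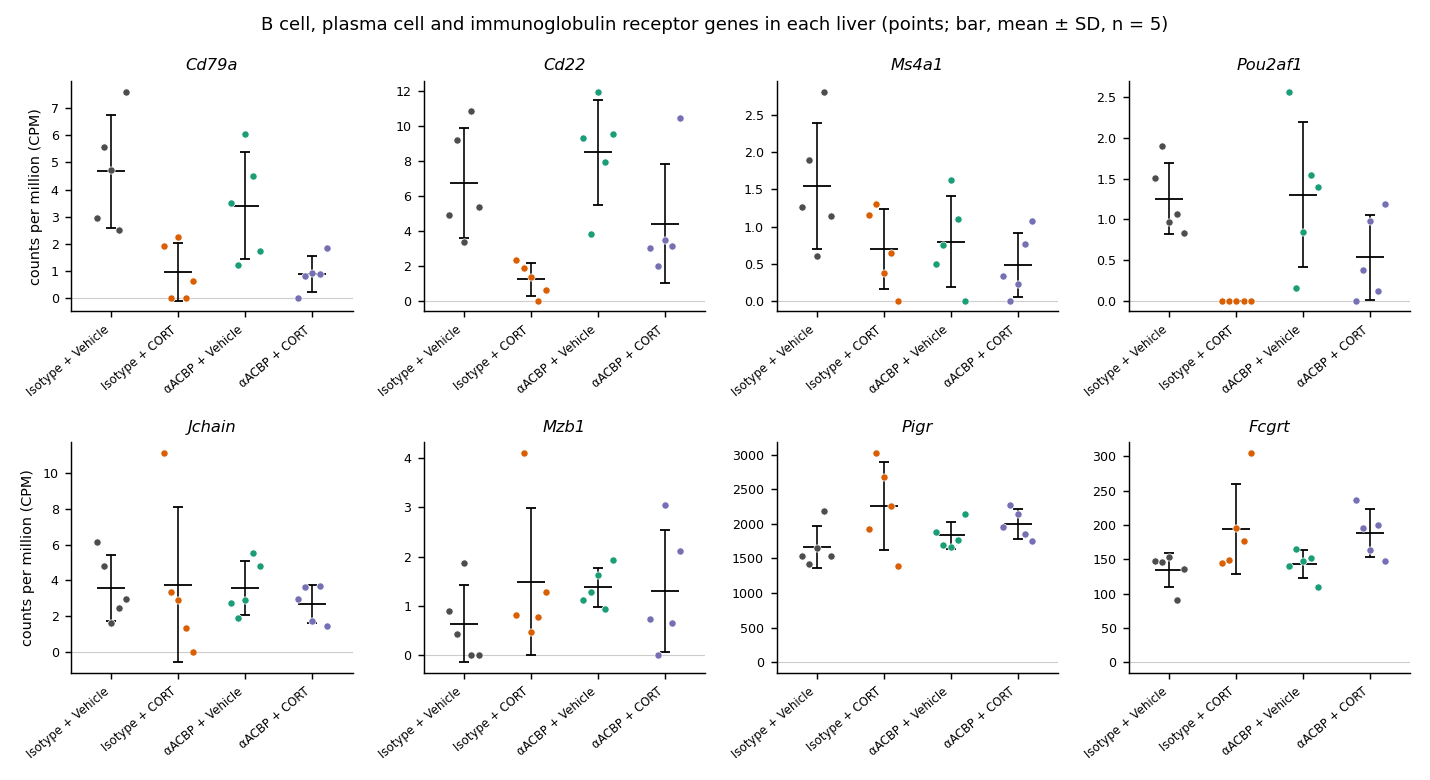
Level in CPM (y axis, own scale per panel) of 4 B cell genes, the plasma cell genes *Jchain* and *Mzb1*, and the receptors *Pigr* and *Fcgrt* in each liver, with the mean and SD of 5 livers. *Pou2af1* was at 0 in the 5 Isotype + CORT livers, while *Jchain* ran from 0 to 11.1 CPM there.

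Of the 7 class switching genes, 5 were tested and 0 passed with CORT under isotype by edgeR, next to 1.94% of all genes in either direction. Of 11 immunoglobulin receptor genes tested 0 passed with the fold limit. *Pigr*, which carries polymeric IgA and IgM across epithelia, was at 1664 ± 306 and 2254 ± 636 CPM (log2 fold change 0.44, adjusted p = 0.221, edgeR). *Fcgrt*, the neonatal Fc receptor that recycles IgG, had an estimate of 0.53 (adjusted p = 0.144, edgeR) and *Fcgr2b*, the inhibitory Fc receptor of the sinusoidal endothelium, one of -0.25 (adjusted p = 0.498, edgeR). *Fcer1g*, the signalling chain of activating Fc receptors, had an adjusted p of 0.0150 with CORT but a log2 fold change of -0.98, just inside the limit. It had an adjusted p of 0.0362 with αACBP in CORT-treated mice, with a log2 fold change of 0.96 (edgeR). Of 11 cytokine genes, 6 were tested and 0 passed, among them *Cxcl13*, the B cell chemoattractant (log2 fold change -3.54, adjusted p = 0.0912, edgeR).

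Markers of other blood and sinusoidal cells were measured beside the immunoglobulins. Of 7 Kupffer cell genes, 5 passed as lower with CORT under isotype, next to 1.43% of all genes. Among them was *Csf1r* (log2 fold change -1.02, adjusted p = 0.00455, edgeR). The summed level of the 7 genes was 318 to 619 CPM in Isotype + Vehicle and 117 to 352 CPM in Isotype + CORT livers. In CORT-treated mice 2 of them (*Csf1r* and *Clec4f*) passed as higher with αACBP, next to 0.504% of all genes. Of 7 T cell genes tested, out of 8, 0 passed but all 7 estimates were negative, with sums of 10.7 to 17 and 1.42 to 5.45 CPM. Of 3 neutrophil genes tested, out of 5, 1 passed as lower (*Csf3r*), next to the same 1.43% of all genes. No red blood cell gene (0 of 5) or hepatocyte gene (0 of 7) passed. All 5 red blood cell estimates were negative, with a median of -0.42, and 4 of the 7 hepatocyte estimates were negative. Red blood cell genes summed to 296 to 487 CPM in Isotype + Vehicle and 154 to 479 CPM in Isotype + CORT livers. No gene of the T cell, Kupffer cell, neutrophil or red blood cell lists was at 0 throughout a group, and of the B cell list *Fcrla* was, in Isotype + CORT. The part of these cells or of residual blood in the immunoglobulin values was not tested.

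Variable segments were too sparse for a repertoire. Of 185 *Ighv* segments, 11 had a count in any liver, and of 160 *Igkv* segments, 33 did. All *Ighv* segments together had 32 counts in the Isotype + Vehicle livers next to 3971 counts on the heavy chain constant genes, and *Igkv* segments had 228 counts next to 1975 on *Igkc*. The kappa ratio of 11.5 variable counts per 100 constant counts in Isotype + Vehicle was 10.7 in Isotype + CORT, 11.1 in αACBP + Vehicle and 7.63 in αACBP + CORT livers. *Igkv1-110* had the highest mean share of kappa variable counts, 16.8% over 18 livers, but was seen in 6 livers. The leading heavy segments *Ighv6-3* and *Ighv1-53* were each seen in 2 livers, with at most 5 and 6 counts. *Iglv1* (5 livers), *Iglv2* (4 livers) and *Iglv3* (2 livers) were the lambda segments of the table. Together they had 56 counts in Isotype + Vehicle, 17 in Isotype + CORT, 18 in αACBP + Vehicle and 12 in αACBP + CORT livers. The 17 counts were all of *Iglv3* in Isotype + CORT replicate 2, a liver without a count on *Iglc1*, *Iglc2* or *Iglc3*, and exceeded the 8 lambda constant counts of that group.

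Liver by liver, with group means subtracted, the members went together only loosely. Over 20 livers Pearson's r of log2 CPM was 0.49 for *Ighm* and *Ighd*, 0.33 for *Ighm* and *Igkc*, 0.17 for *Ighm* and *Igha*, and 0.26 for *Jchain* and *Ighm*. These points share library depth, and low counts weaken such values. The genes most like *Ighm* by this measure, among 16071 genes over 20 livers, were *Arhgap17* (0.85), *Stim2* (0.80), *Gm10509* (0.79), *Fbxo5* (0.78) and *Clcf1* (0.77). For *Igkc* they were *Rps25-ps1* (0.80), *Adcy5* (0.79), *Dact1* (0.79), *Ms4a4b* (0.78) and *3830408C21Rik* (0.78). For *Igha* the leading gene was *Slc12a5* (0.75), for *Ighg2b* it was *Stam2* (0.78) and for *Iglc2* it was *Klhdc1* (0.86). Each value is the highest among many genes.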

How the data were processed

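The deposited table holds raw counts per gene for 20 livers, made by the authors with HISAT2 and HTSeq per the labels. The labels name mm10 and the study's methods GRCm39. Of the gene identifiers, 91.4% were found in GENCODE M39 but only 0.0723% with the same version number, so the table used an older annotation, and positions, exon lengths and sequences given here are those of GENCODE M39 on GRCm39, matched by identifier. The 5 lines without a gene, which held 59.6 to 63.4% of the read pairs listed, were left out. The strand setting is not given in the sources used here.

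Genes were filtered with filterByExpr (16071 kept), scaled by TMM and fitted with edgeR 4.0.16 (robust quasi-likelihood, R 4.3.3) in 1 model of 4 groups, with Benjamini-Hochberg adjustment over all genes tested. A gene passed at an adjusted p of 0.05 or less with a change of 1 or more on the log2 scale. Alternatives used DESeq2 1.42.0 size factors and Wald test, limma 3.58.1 voom with quality weights, other filters, library sizes without the 20 most abundant genes, only the groups compared, a replicate block and each liver left out. The lambda share with Iglc3 was added after the data were seen. Scripts were tested on simulated data. Sums, shares and ratios carry no test. Intervals of a count cover counting error only, and p-values measure the spread between livers that the labels call biological replicates.

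The members and gene lists were chosen with earlier results of these data known. Genes named beside the members were Ighe, Iglc3, Iglc4, Jchain, Mzb1, Cd79a, Ms4a1, Pigr, Fcgrt, Fcgr2b, up to 3 genes of each list with the smallest p for CORT under isotype, the 5 genes most like the leading gene of each class, and the 3 leading variable segments of each locus. One further gene of this rule is not reported here. Tnfrsf17 was named after its values were seen. Of the hepatocyte list, 7 of 8 symbols were found.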

Additional observations from a re-analysis of the deposited data

Results flagged for a closer look

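Dixon's ratio was computed for 41 sets of 5 livers that were not all at 0, and 6 exceeded 0.71. For normally distributed values chance alone marks about 1 set in 20. That rate does not hold for sets with low counts and values of 0, so the 6 cannot be read as an excess. In the sets of *Ighg2b* and *Ighg3* below, 4 livers were at 0, which fixes the ratio at 1. *Igkc* in Isotype + Vehicle replicate 1 was at 34.3 CPM with the next liver at 20.9 CPM, and in Isotype + CORT replicate 1 at 14.7 CPM with the next at 6.73 CPM. *Ighd* in Isotype + CORT replicate 3 was at 3.31 CPM with the next liver at 0.521 CPM. The other 3 were *Ighg1* in αACBP + CORT replicate 1 (1.28 CPM), *Ighg2b* in Isotype + CORT replicate 4 (0.261 CPM) and *Ighg3* in αACBP + CORT replicate 1 (0.134 CPM). The cause was not tested.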

How the results depend on the processing

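*Ighm* kept its pass for CORT under isotype in every alternative fit. The number of genes of the set that passed there was 2 and became 5 with the DESeq2 Wald test and with unadjusted p (2.47% and 4.09% of all genes lower), and 1 without a filter beyond 1 count (*Igkc* adjusted p 0.0810, 0.844% of all genes lower). For the other comparisons, with 0 in the fit reported, unadjusted p gave 2 for αACBP under CORT, 3 for CORT under αACBP, 1 for αACBP under vehicle, 2 for αACBP + CORT against Isotype + Vehicle and 3 for the interaction. The DESeq2 Wald test gave 1 for CORT under αACBP and 1 for αACBP + CORT against Isotype + Vehicle, voom gave 1 and 2, and a fit of only the groups compared gave 2 for the latter (0.237% lower). With 1 liver left out, counts ran from 1 to 2 for CORT under isotype, and from 0 to 1 for αACBP under CORT (*Ighd* without Isotype + CORT replicate 3), for CORT under αACBP and for αACBP + CORT against Isotype + Vehicle (*Ighm* without αACBP + CORT replicate 5).

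Replicate numbers did not pair the livers: deviations of same-number livers from their group means correlated at -0.169 to 0.170, and 4 of 20 livers correlated best with their own number. With a replicate block the counts were 3 for CORT under isotype, *Ighd* added (1.35% of all genes lower), and 1 for αACBP + CORT against Isotype + Vehicle (*Ighm*, adjusted p 0.0483, with 0.0311% lower). The block turned 3 estimates that had not passed: *Ighd* (-0.21) and *Iglc2* (-0.37) for αACBP under vehicle and *Ighg2c* (-0.69) for αACBP + CORT against Isotype + Vehicle. voom turned the last 2, to -0.78 for *Iglc2* and -0.017 for *Ighg2c*.

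Leaving out 1 liver turned these estimates, none of which had passed. *Ighg2c* ran from -0.024 to 1.04 for CORT under isotype, -1.12 to 0.26 for αACBP under CORT and -0.64 to 0.80 for αACBP + CORT against Isotype + Vehicle. *Iglc2* ran from -0.82 to 0.52 for αACBP under vehicle, -1.21 to 0.50 for CORT under αACBP and -1.19 to 0.19 for αACBP + CORT against Isotype + Vehicle. *Iglc1* ran from -1.05 to 0.11 and *Ighd* from -0.0079 to 0.43 for αACBP under vehicle. *Ighg2b* ran from -0.055 to 1.29 and *Igha* from -0.60 to 0.12 for CORT under αACBP, and *Igha* from -0.12 to 0.57 for αACBP under CORT. The cause was not tested. Of 374 log2 fold changes in the other fits, 349 kept direction and side of the threshold, 19 gained and 1 lost the pass. No variable segment had counts in 10 livers, so totals restricted to such segments gave no value. The IgG and lambda genes had the fewest counts and the widest intervals.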

Other observations

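αACBP + Vehicle replicate 5 combined 1261 counts of *Ighm*, at 60.9 CPM the highest of the 20 livers, with 108 counts of *Igkc*. The ratio of *Igkc* to *Ighm* counts was 0.0856 there and between 0.387 and 2.18 in the other 19 livers. The same liver had 36 counts on the joining segment *Ighj2* and 24 on *Igkj4*. These values were picked after they were seen and carry no test.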
